A study of Homo sapiens with 16 samples.

Results

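The 10 genes described here encode transcription factors that set blood cell identity: SPI1, RUNX1, RUNX2, RUNX3, GATA2, IRF8, MYB, TAL1, LMO2 and FLI1. They were chosen by symbol, and each matched 1 row of the 62700 genes in the count table. RNA-seq had been done in 16 libraries of OCI-AML3, an established human acute myeloid leukaemia (AML) cell line, to compare retinoids given alone with retinoids given beside epigenetic inhibitors. The 5 groups were untreated cells (4 libraries), cells given all-trans retinoic acid (ATRA, 3 libraries), cells given AM80 (3 libraries), cells given ATRA with GSK-LSD1 and MB3 (3 libraries), and cells given AM80 with GSK-LSD1 and MB3 (3 libraries). ATRA is the natural ligand of the retinoic acid receptors, AM80 (tamibarotene) is a synthetic retinoid that prefers the receptor RARA, GSK-LSD1 inhibits the histone demethylase LSD1, and MB3 inhibits the histone acetyltransferase GCN5. Per the study's methods, treatment lasted 3 h, either retinoid and GSK-LSD1 were each used at 0.1 µM, and MB3 was used at 100 µM. All groups are cells of 1 line, and there was no group with the inhibitors alone, so what the inhibitors do without a retinoid cannot be told from these data.

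These factors bind DNA at enhancers and promoters of blood genes, often side by side. TAL1, LMO2 and GATA2 form a complex of stem and progenitor cells in which LMO2 bridges TAL1 to the GATA factor, and MYB keeps progenitors immature and dividing. The RUNX proteins bind DNA together with CBFB, the ETS factors PU.1 (the product of SPI1) and FLI1 bind GGAA sites, and IRF8 works with PU.1 in the monocyte lineage.

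MYB, GATA2, TAL1 and RUNX3 had the 4 widest ranges of group means among the 10 genes, so their promoter sequences are shown. The sequences are RefSeq stretches on build GRCh38.p14, written 5′ to 3′ on the strand of the gene. For MYB, GATA2 and TAL1 they are the 250 bases before a start site, at chr6:135181058-135181307 (plus strand), chr3:128493202-128493451 (minus strand) and chr1:47232336-47232585 (minus strand). For RUNX3 the stretch covers 139 bases at chr1:24965122-24965260 (minus strand) and ends 111 bases before the start site. All 4 stretches lie upstream of the gene as GENCODE 29 annotates it, outside its exons and introns. Capitals mark the AGGTCA hexamer of nuclear receptor sites in GATA2, the reverse complement of the GATA motif AGATAA in TAL1, and 2 reverse complements of the RUNX core TGTGGT in RUNX3.
MYB promoter: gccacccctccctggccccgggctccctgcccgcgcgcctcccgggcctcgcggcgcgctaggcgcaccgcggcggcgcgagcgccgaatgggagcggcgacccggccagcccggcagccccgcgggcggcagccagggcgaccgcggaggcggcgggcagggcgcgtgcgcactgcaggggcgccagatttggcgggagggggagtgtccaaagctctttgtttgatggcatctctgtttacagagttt
GATA2 promoter: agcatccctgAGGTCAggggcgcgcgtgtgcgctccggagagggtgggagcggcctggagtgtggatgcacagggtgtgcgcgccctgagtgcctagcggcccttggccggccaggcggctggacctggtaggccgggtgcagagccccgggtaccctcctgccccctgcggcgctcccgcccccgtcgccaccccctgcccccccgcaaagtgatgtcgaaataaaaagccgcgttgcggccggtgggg
TAL1 promoter: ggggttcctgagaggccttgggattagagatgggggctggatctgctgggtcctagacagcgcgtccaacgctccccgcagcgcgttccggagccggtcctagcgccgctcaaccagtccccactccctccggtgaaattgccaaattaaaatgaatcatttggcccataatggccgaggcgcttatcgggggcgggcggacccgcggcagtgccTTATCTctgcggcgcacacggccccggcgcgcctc
RUNX3 promoter: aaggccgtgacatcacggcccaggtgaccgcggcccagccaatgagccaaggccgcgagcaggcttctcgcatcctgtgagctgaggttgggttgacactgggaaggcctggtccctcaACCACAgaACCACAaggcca

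These motifs and the ETS motif GGAAGT were searched on both strands of promoter windows that run from 250 bases before to 50 bases after a start site. The AGGTCA hexamer began 240 bases before the GATA2 start site, TTATCT began 35 bases before that of TAL1, and ACCACA began 131 and 123 bases before that of RUNX3. Among all 35116 windows of the promoter set, 13.8% held AGGTCA, 10.3% held AGATAA, 13.1% held TGTGGT and 22.8% held GGAAGT in either orientation, so such matches are common. The MYB and RUNX1 windows held none of the 4 motifs, and neither did the second windows of GATA2, RUNX2 and RUNX3. The second TAL1 window held 3 RUNX cores, the first RUNX2 window held AGGTCA 96 bases before its start site and 4 RUNX cores, and the overlapping IRF8 windows held 1 AGGTCA site, within both, and 1 RUNX core. The table had 12 windows for 7 of the 10 genes and no entry for SPI1, LMO2 or FLI1. In the GENCODE 29 annotation of GRCh38 MYB lies at chr6:135181315-135219173 (plus), GATA2 at chr3:128479427-128493185 (minus), TAL1 at chr1:47216290-47232220 (minus), LMO2 at chr11:33858576-33892289 (minus) and RUNX3 at chr1:24899511-24965121 (minus). RUNX1 lies at chr21:34787801-36004667 (minus), RUNX2 at chr6:45328157-45664349 (plus), SPI1 at chr11:47354860-47378576 (minus), IRF8 at chr16:85898803-85922609 (plus) and FLI1 at chr11:128686535-128813267 (plus), with the strand in parentheses.

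Values are DESeq2-normalized counts: reads per gene, corrected for the depth of the library by its size factor. The libraries held 11963898 to 33789718 reads on genes. The myeloid markers CD33, with 979 to 2766 reads per library, and SPI1 were present, while the stem cell markers CD34 and KIT reached at most 5 and 4 reads. Of other marker lists, 0 of 4 T-cell genes, 0 of 4 erythroid genes, 1 of 4 megakaryocyte genes, 2 of 4 B-cell genes and 2 of 4 mast cell genes exceeded 3 reads in any library. PECAM1, which was listed with stroma and is also made by myeloid cells, had 773 to 5358 reads, and summed counts of that list ran from 988 to 1171 in untreated cells and from 1663 to 2780.0 in treated cells. The other genes of that list, EPCAM, KRT18 and COL1A1, had at most 1, 9 and 4 reads, so the rise lies in PECAM1. The part of that rise in the results was not tested. The replicates untreated 4 and AM80 2 differed most from their own groups. Nothing says that replicates came from separate cultures, so p-values measure only the spread between these libraries, which may be technical. In such bulk RNA, fewer cells of a type and less RNA per cell cannot be told apart.

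Where the 10 factors changed, they fell. Against untreated cells, 5 of 10 passed the test with ATRA, at limma adjusted p under 0.05, and 5 of 10 passed with AM80, all of them lower. GATA2, TAL1, MYB, IRF8 and RUNX3 were those 5 with either retinoid. Of all 14643 genes tested, 24.6% passed with ATRA (12.1% lower) and 28.8% with AM80 (13.4% lower), so 5 of 10 is a larger share than that of all genes. With ATRA plus both inhibitors 8 of 10 factors were lower than in untreated cells, where 60.2% of all genes passed (30% lower), and with AM80 plus both inhibitors 9 of 10 were lower, where 54.7% passed (26.6% lower). Adding the inhibitors to ATRA lowered 7 of 10 factors against 49.3% of all genes called (24.4% lower), and adding them to AM80 lowered 7 of 10 against 39.5% (19.5% lower). No factor passed in the upward direction in any of these 6 comparisons, in which 12.5%, 15.4%, 30.2%, 28%, 24.9% and 19.9% of all genes did, in the order given. Among the 11301 genes that averaged at least 50 normalized counts, as all 10 factors did, the shares passing in either direction were larger. They were 28.5%, 34%, 67.5%, 61.1%, 57.3% and 45.6% in the same order. The 10 factors were chosen with earlier results of these data known, so these shares describe them and are not a test. The median log2 fold change of the 10 factors was -0.21 with ATRA, -0.25 with AM80, -0.54 and -0.59 with the combinations against untreated cells, and -0.36 and -0.45 on adding the inhibitors, while the median of all genes lay between -0.02 and 0 in these comparisons. The comparisons with untreated cells share the same 4 libraries, and each retinoid group also serves in 2 comparisons, so they are not independent of each other.

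**Figure D1:**
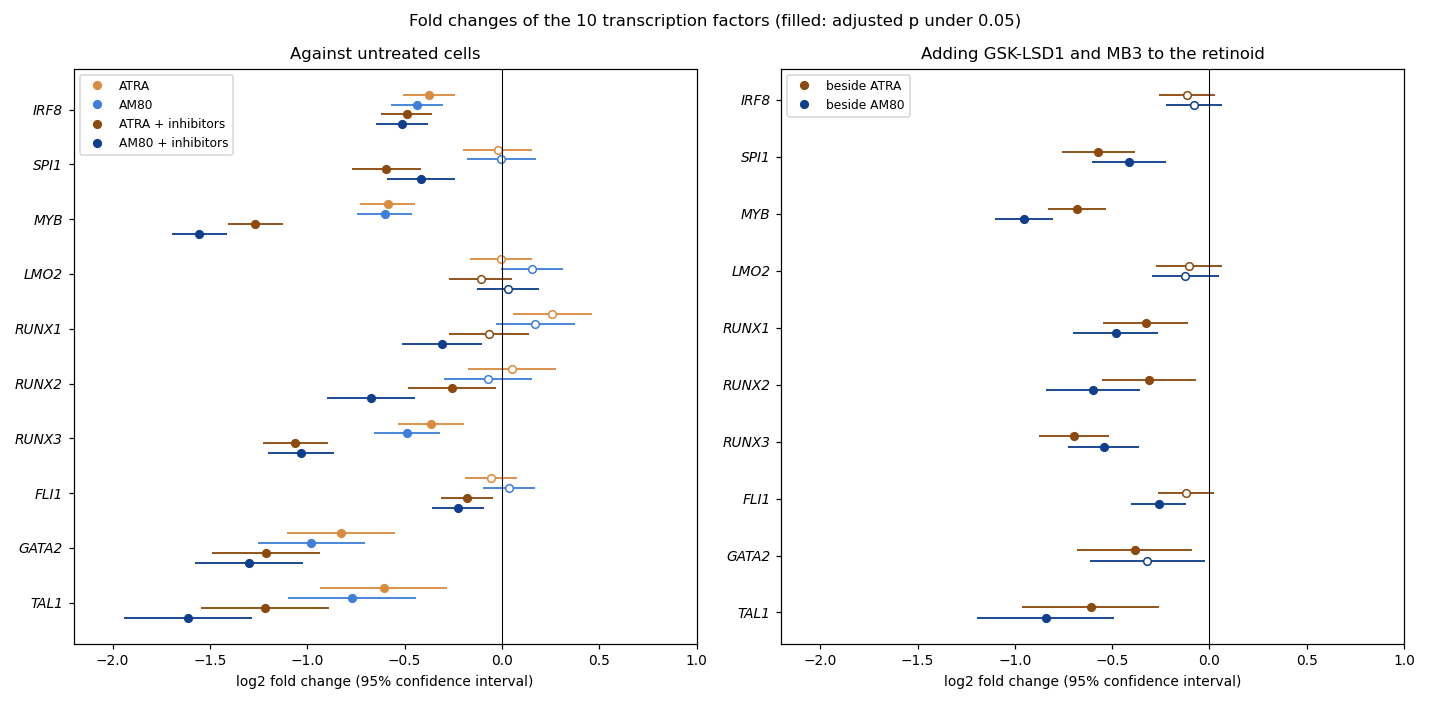
Log2 fold changes of the 10 factors with 95% confidence intervals from limma, on the left for each treatment against untreated cells (4 libraries) and on the right for each combination against its retinoid (3 libraries each). Filled points passed at adjusted p under 0.05, and all filled points lie below 0, down to -1.61 for TAL1 with AM80 and both inhibitors.

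Scaling to total reads in place of size factors moved the median log2 fold change of all genes to -0.15, -0.19, -0.16 and -0.13 in the 4 comparisons with inhibitors (ATRA and AM80 combinations against untreated cells, then against their retinoids). Under it the share of called genes that were higher went from 50.1% to 35.0%, from 51.3% to 30.4%, from 50.5% to 29.8% and from 50.5% to 29.3%, and for AM80 against untreated cells from 53.5% to 39.0%. The falls of the factors given below are on the size factor scale, and the size of falls near these shifts depends on that scale. With scaling to total reads no called fall of a factor was lost. LMO2, IRF8, FLI1 and GATA2 then also passed as lower in comparisons with inhibitors where they had missed the threshold.

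MYB, the progenitor factor, had the clearest steps between groups. MYB counts in untreated cells were 7876, 8019.6, 8262 and 7311. ATRA gave 5339, 4979.9 and 5402 MYB counts, and AM80 gave 5107, 5361 and 5072. With the inhibitors they were 3455, 3001 and 3362 beside ATRA, and 2450.1, 2716 and 2877 beside AM80. Every treated library was below every untreated one, the 2 retinoid groups overlapped, and every library with inhibitors was below every library with a retinoid alone. The log2 fold change of MYB was -0.59 with ATRA (95% confidence interval -0.73 to -0.44, limma adjusted p = 8.88e-07) and -0.60 with AM80 (-0.74 to -0.46, limma adjusted p = 5.98e-07). Adding the inhibitors changed MYB by a further -0.68 beside ATRA (-0.83 to -0.53, limma adjusted p = 3.17e-07) and -0.95 beside AM80 (-1.10 to -0.80, limma adjusted p = 3.5e-09). In the combinations MYB stood at 41.6% and 34.1% of its untreated mean. The antisense gene MYB-AS1 shares 1.88% of the exon bases of MYB and had 1 to 12 reads per library.

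GATA2, the GATA factor of stem and progenitor cells, fell with either retinoid. Untreated cells gave GATA2 counts of 220.3, 215, 247 and 206. The GATA2 counts were 128, 136 and 110.2 with ATRA and 110.5, 93.7 and 135 with AM80. They were 103, 92.4 and 89.8 with ATRA and inhibitors and 105, 85.2 and 79.8 with AM80 and inhibitors. All 12 treated libraries lay below the 4 untreated ones, and the group with AM80 overlapped each of the other treated groups. GATA2 changed by -0.83 with ATRA (log2, limma adjusted p = 6.42e-05) and by -0.98 with AM80 (limma adjusted p = 6.99e-06), to 56.2% and 51.0% of the untreated mean. Adding the inhibitors gave a further -0.39 beside ATRA (limma adjusted p = 0.0293), which ran from -0.47 to -0.32 with 1 library left out at a time and missed the threshold without ATRA replicate 1 or 2 or replicate 2 or 3 of ATRA with inhibitors. It also missed it with quantile normalization (-0.25, limma adjusted p = 0.152), by DESeq2 (adjusted p = 0.0639) and with no filter (limma adjusted p = 0.0561). Beside AM80 the further difference was -0.32 (95% confidence interval -0.61 to -0.02, limma adjusted p = 0.0793), and it passed when AM80 replicate 2 (-0.45) or the first replicate of AM80 with inhibitors (-0.44) was left out, or with scaling to total reads (-0.44, limma adjusted p = 0.0195).

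TAL1, the helix-loop-helix partner in the complex with LMO2 and GATA2, was the least abundant of the 10 and had the widest range. TAL1 counts were 93.4, 89.6, 90.9 and 94.2 in untreated cells. They were 64.6, 64.7 and 51.9 with ATRA and 57.6, 46.1 and 57.9 with AM80. With the inhibitors they were 38.1, 39.1 and 39.8 beside ATRA and 23.0, 35.7 and 30.9 beside AM80. Untreated, retinoid and combination libraries formed 3 ranges that did not overlap. TAL1 changed by -0.61 with ATRA (log2, limma adjusted p = 0.00643) and by -0.77 with AM80 (limma adjusted p = 0.000753). The inhibitors added -0.61 beside ATRA (limma adjusted p = 0.00513) and -0.84 beside AM80 (limma adjusted p = 0.000457), which left TAL1 at 42.4% and 32.5% of its untreated mean. These counts rest on 21 to 97 reads per library, and without ATRA replicate 3 the ATRA result missed the threshold (limma adjusted p = 0.0507). The antisense gene AL135960.1 covers 14.8% of the exon bases of TAL1 and had 1 to 11 reads.

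LMO2, the bridge of the same complex, showed no difference that passed the test in any of the 6 comparisons. LMO2 counts were 2244, 2349.6, 2188 and 2819 in untreated cells, 2434, 2251 and 2463 with ATRA, and 2740.5, 2609.6 and 2627 with AM80. They were 2096, 2323 and 2228 with ATRA and inhibitors, and 2564, 2493 and 2268 with AM80 and inhibitors. The highest value, untreated replicate 4, was above all treated libraries. The confidence intervals of the log2 fold change of LMO2 were -0.17 to 0.16 with ATRA, -0.01 to 0.32 with AM80, -0.28 to 0.07 on adding inhibitors to ATRA and -0.30 to 0.05 on adding them to AM80. Without untreated replicate 4 the difference with AM80 was 0.23 and passed. With scaling to total reads or quantile normalization LMO2 passed as lower in ATRA with inhibitors against untreated cells and in both comparisons of adding the inhibitors.

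**Figure D2:**
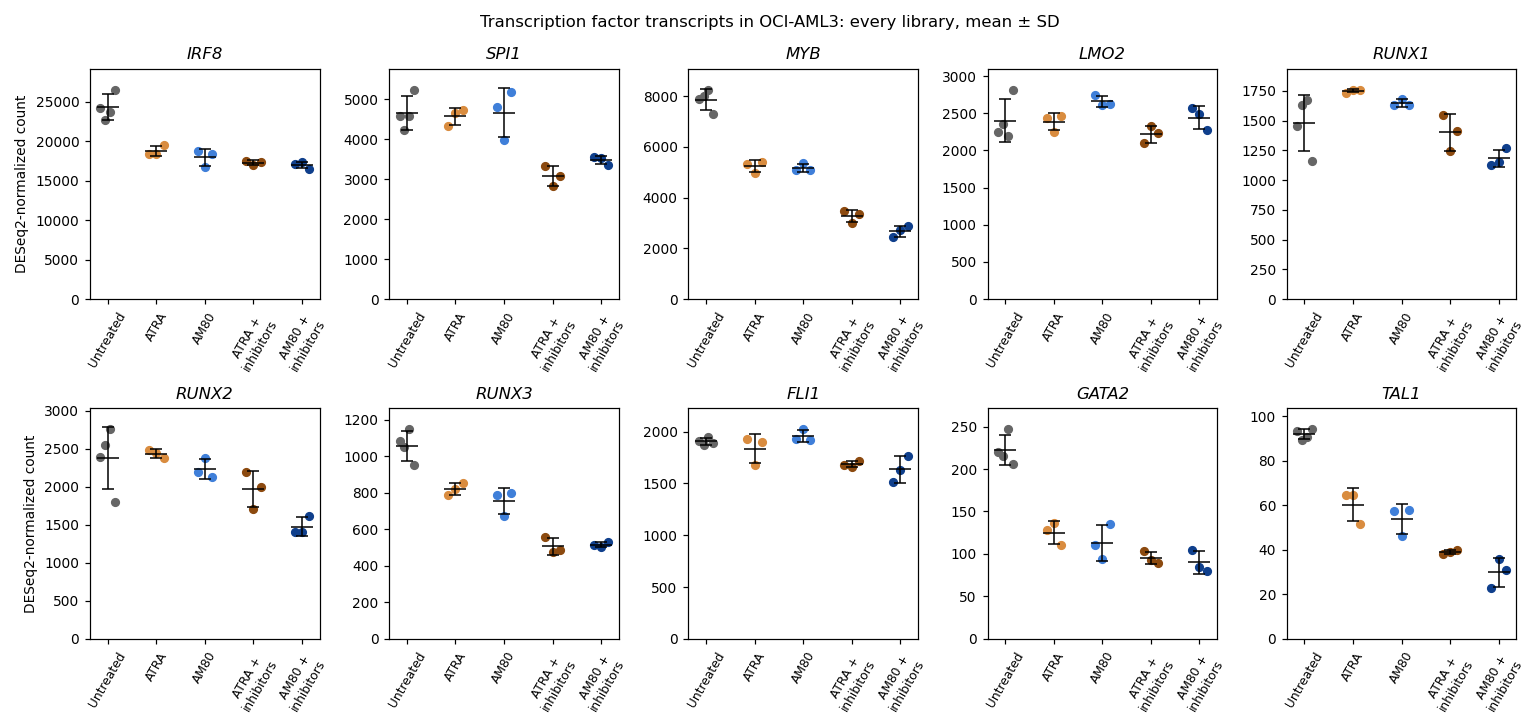
DESeq2-normalized counts of the 10 factors in every library (points) with the mean and SD of each group (lines); each vertical axis starts at 0 and has its own scale. MYB and TAL1 step down from untreated to retinoid to combination libraries, GATA2 and IRF8 drop with the retinoid, SPI1 drops in the libraries with inhibitors, and LMO2 stays between 2096 and 2819.

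The 3 RUNX factors passed in different comparisons, and differences between the genes were not tested. RUNX3, known for its role in T cells, was lower in each of the 6 comparisons. RUNX3 counts were 1084, 1047, 1146 and 951 in untreated cells, 789, 819 and 852 with ATRA, and 788, 674 and 799.9 with AM80. They were 558, 474 and 486 with ATRA and inhibitors and 512, 504 and 529 with AM80 and inhibitors. The untreated, retinoid and combination libraries did not overlap, while the 2 retinoid groups did and so did the 2 combination groups. RUNX3 changed by -0.36 with ATRA (log2, limma adjusted p = 0.00192) and by -0.49 with AM80 (limma adjusted p = 8.69e-05). The inhibitors added -0.70 beside ATRA (limma adjusted p = 2.03e-06) and -0.54 beside AM80 (limma adjusted p = 4.4e-05), so the combinations held 47.9% and 48.7% of the untreated mean.

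RUNX1, the core factor of definitive blood formation, had no fall with a retinoid alone. RUNX1 counts in untreated cells were 1452, 1629, 1673 and 1159, of which the last, replicate 4, stood apart. They were 1735, 1759.7 and 1761 with ATRA and 1634, 1685 and 1628 with AM80. They were 1549, 1241 and 1415 with ATRA and inhibitors and 1128, 1152 and 1267 with AM80 and inhibitors. All 3 ATRA libraries were above all untreated ones, yet the log2 difference of 0.26 did not pass (95% confidence interval 0.05 to 0.46, limma adjusted p = 0.0595), and with each library left out in turn it ran from 0.15 to 0.32. It passed when untreated replicate 2 or 3 was left out. Adding the inhibitors lowered RUNX1 by 0.33 beside ATRA (log2 fold change -0.33, limma adjusted p = 0.0139) and by 0.48 beside AM80 (log2 fold change -0.48, limma adjusted p = 0.00105). Against untreated cells RUNX1 was lower with AM80 and inhibitors (-0.31, limma adjusted p = 0.0113) and gave -0.07 with ATRA and inhibitors (95% confidence interval -0.27 to 0.14), where without untreated replicate 4 it was -0.18 and passed. The result beside ATRA was lost without replicate 2 of ATRA with inhibitors, and the one against untreated cells without replicate 1 of AM80 with inhibitors.

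RUNX2, known best from bone, passed the test in the 4 comparisons of libraries with inhibitors and in neither of the others. RUNX2 counts were 2399, 2546, 2755 and 1803 in untreated cells, 2490.2, 2444 and 2375 with ATRA, and 2198, 2380.2 and 2126 with AM80. They were 2197, 1715 and 2004 with ATRA and inhibitors and 1405, 1403 and 1618 with AM80 and inhibitors. All 3 libraries with AM80 and inhibitors were below every other library, while those with ATRA and inhibitors overlapped the untreated range. The log2 fold change on adding inhibitors was -0.60 beside AM80 (limma adjusted p = 0.000341) and -0.31 beside ATRA (limma adjusted p = 0.0309). Against untreated cells RUNX2 gave -0.67 with AM80 and inhibitors (limma adjusted p = 2.41e-05) and -0.26 with ATRA and inhibitors (limma adjusted p = 0.0455). Both results with ATRA were close to the threshold: the first ran from -0.39 to -0.22 with 1 library left out and missed it without any 1 ATRA library or replicate 2 or 3 of ATRA with inhibitors, and the second ran from -0.39 to -0.16 and was called only when the library left out was untreated replicate 4, AM80 replicate 2 or 3, or the first and the last replicate of the ATRA and AM80 combinations, respectively. With no filter both missed it (limma adjusted p = 0.0628 and 0.0891), and the second did with only the groups compared (limma adjusted p = 0.11). For the retinoids alone the intervals were -0.17 to 0.28 with ATRA and -0.30 to 0.15 with AM80.

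SPI1 encodes PU.1, the ETS factor that drives monocyte and granulocyte genes. SPI1 counts were 4579.6, 4237, 4571 and 5245 in untreated cells, 4337, 4654 and 4737 with ATRA, and 4809, 3989.5 and 5190.0 with AM80. They were 3341, 2830.1 and 3086 with ATRA and inhibitors and 3552, 3528 and 3361 with AM80 and inhibitors. The retinoid groups overlapped the untreated cells, and all 6 libraries with inhibitors were below the other 10. SPI1 gave a log2 fold change of -0.02 with ATRA (95% confidence interval -0.20 to 0.15) and of 0.00 with AM80 (interval -0.18 to 0.17). Adding the inhibitors changed SPI1 by -0.57 beside ATRA (limma adjusted p = 3.4e-05) and by -0.41 beside AM80 (limma adjusted p = 0.00107), which were 1.49-fold and 1.33-fold falls. The combination groups stood at 66.2% and 74.7% of the untreated mean.

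IRF8, the partner of PU.1 in monocytes and dendritic cells, had the highest counts and moved with the retinoid. IRF8 counts were 24259, 22771, 23759 and 26579 in untreated cells, 18392, 18369 and 19483 with ATRA, and 18766, 16778 and 18429.6 with AM80. They were 17572, 16988 and 17355 with ATRA and inhibitors and 17131, 17377 and 16543 with AM80 and inhibitors. Every treated library was below the untreated ones, and neighbouring treated groups overlapped. The log2 fold change of IRF8 was -0.37 with ATRA (limma adjusted p = 0.000132) and -0.44 with AM80 (limma adjusted p = 1.99e-05). Adding the inhibitors gave -0.12 beside ATRA (95% confidence interval -0.26 to 0.03, limma adjusted p = 0.171) and -0.08 beside AM80 (interval -0.22 to 0.06, limma adjusted p = 0.381). Both passed as lower with scaling to total reads or quantile normalization. IRF8 was thus called with the retinoids and SPI1 on adding the inhibitors, and a difference between the 2 genes was not tested.

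FLI1, an ETS factor of progenitor, megakaryocyte and endothelial cells, moved least together with LMO2. FLI1 counts were 1913, 1874, 1951 and 1893 in untreated cells, 1931, 1676 and 1902 with ATRA, and 1934, 2021 and 1916 with AM80. They were 1678, 1662 and 1717 with ATRA and inhibitors and 1511, 1630.1 and 1765 with AM80 and inhibitors. All 6 libraries with inhibitors were below the untreated range. FLI1 fell on adding the inhibitors to AM80 (log2 fold change -0.26, limma adjusted p = 0.00474), and beside ATRA it gave -0.12 (95% confidence interval -0.26 to 0.02, limma adjusted p = 0.153), which passed with scaling to total reads (-0.27), with quantile normalization (-0.24) and without ATRA replicate 2. Against untreated cells the combinations gave -0.18 (limma adjusted p = 0.0214) and -0.23 (limma adjusted p = 0.0055), and they missed the threshold without replicate 1 or 2 of ATRA with inhibitors (limma adjusted p = 0.0551 and 0.0649) and without replicate 1 of AM80 with inhibitors (limma adjusted p = 0.0528). SENCR, antisense to FLI1, shares 1.98% of its exon bases and had 40 to 100 reads.

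Per kilobase of GENCODE 29 exon sequence, the levels of the 10 factors in untreated cells spanned from IRF8 down to TAL1. IRF8 had 4716 ± 313 normalized counts per kb (SD, n = 4), SPI1 2251 ± 204, MYB 1432 ± 73.4 and LMO2 772 ± 92.3. RUNX2 followed with 290.0 ± 49.9, RUNX3 with 234 ± 18.1 and FLI1 with 233 ± 3.999. RUNX1 had 94.9 ± 14.98, GATA2 49.8 ± 3.90 and TAL1 16.1 ± 0.38. RUNX2 and RUNX3 overlapped, as did RUNX3 and FLI1, and all other neighbours in this order had ranges that did not overlap. On this scale IRF8 and SPI1 were the most abundant, and GATA2 and TAL1 the least. Exon length is taken over all annotated exons, so genes with long alternative exons, such as RUNX1 (15.6 kb), read low on this scale.

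ATRA and AM80 were given at the same dose for the same time, so each factor was compared directly between them, alone and beside the inhibitors. The compounds differ in that ATRA is a polyene acid and AM80 an aromatic amide of benzoic acid. Without inhibitors 0 of 10 factors passed, and 0.239% of all genes did (0.184% higher and 0.0546% lower with AM80, 35 genes by limma, 88 by edgeR, 344 by DESeq2, and 2042 at an unadjusted p under 0.05). For MYB the difference of AM80 minus ATRA was -0.02 (log2, 95% confidence interval -0.17 to 0.13), for IRF8 -0.06 (-0.20 to 0.08) and for SPI1 0.02 (-0.17 to 0.21). The widest intervals were those of TAL1, at -0.16 (-0.51 to 0.19), and GATA2, at -0.15 (-0.45 to 0.14), so differences within these bounds are not excluded here. RUNX3 gave -0.12 (-0.31 to 0.06), RUNX2 -0.13 (-0.37 to 0.12), RUNX1 -0.09 (-0.31 to 0.13), FLI1 0.09 (-0.05 to 0.24) and LMO2 0.16 (-0.01 to 0.33).

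**Figure D3:**
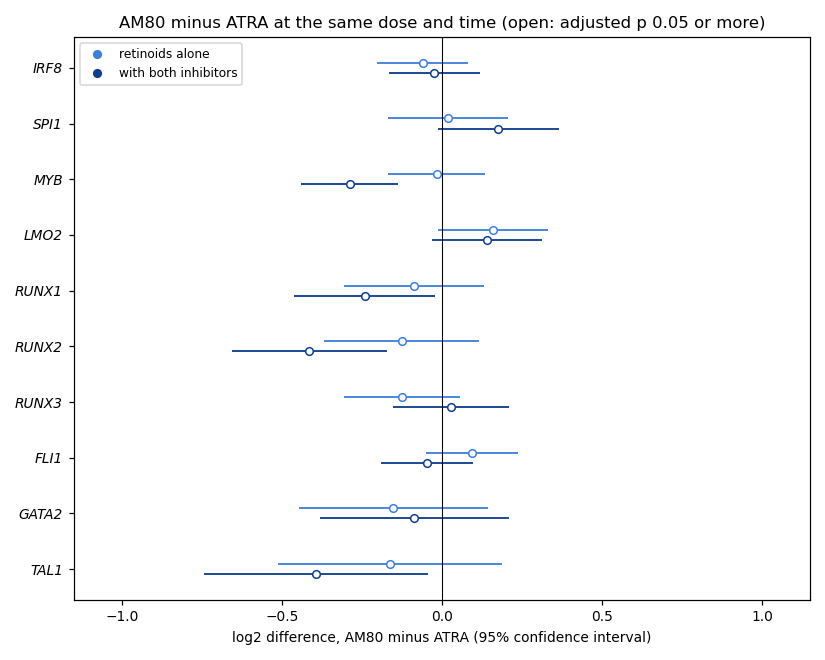
Log2 difference of AM80 minus ATRA for each factor with 95% confidence intervals from limma, for the retinoids alone (light) and beside both inhibitors (dark), 3 libraries a group. Open points have an adjusted p of 0.05 or more, which holds for all 20 values, and with inhibitors the intervals of MYB, RUNX2, RUNX1 and TAL1 lie below 0.

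Beside the inhibitors 0 of 10 factors passed, and 0% of all genes did by limma or edgeR, while DESeq2 called 114 genes and 2656 had an unadjusted p under 0.05. MYB was lower with AM80 than with ATRA in this setting by -0.29 (log2, 95% confidence interval -0.44 to -0.14, limma adjusted p = 0.123), and RUNX2 by -0.41 (-0.66 to -0.17, limma adjusted p = 0.14). TAL1 gave -0.39 (-0.74 to -0.04, limma adjusted p = 0.233), RUNX1 -0.24 (-0.46 to -0.02, limma adjusted p = 0.239) and SPI1 0.18 (-0.01 to 0.37, limma adjusted p = 0.304). For MYB, RUNX2 and TAL1 all 3 libraries with AM80 were below all 3 with ATRA. For SPI1 all 3 with AM80 were above all 3 with ATRA. All these differences missed the threshold. The number of factors called was 2 (MYB and RUNX2) without untreated replicate 4, 1 (MYB) by DESeq2, 1 without AM80 replicate 2 and 4 (SPI1, RUNX1, RUNX2 and MYB) when the 6 combination libraries alone were fitted. In the same fits 4.41%, 1.19%, 1.66% and 13.5% of all genes were called. With the replicate number as a block, MYB and RUNX2 passed (limma adjusted p = 0.0292 and 0.0278), as did 690 genes in all (4.71%), while for AM80 against ATRA without inhibitors the block called 402 genes and 0 of the factors. Only untreated cells had a replicate 4, so the block in effect leaves that library out. The block and the fit without untreated replicate 4 are therefore not separate checks. Whether the inhibitors acted differently beside AM80 than beside ATRA was tested as an interaction, in which 0 of 10 factors and 0% of all genes passed by limma or edgeR, DESeq2 called 27 genes, and 2211 genes had an unadjusted p under 0.05. The interaction of MYB was -0.27 (-0.49 to -0.06, limma adjusted p = 0.243) and that of RUNX2 -0.29 (-0.63 to 0.05, limma adjusted p = 0.404).

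The partners with which these factors act moved in both directions. Of 23 partner genes 21 were tested, of which 2 rose and 7 fell with ATRA and 1 rose and 9 fell with AM80, with medians of -0.16 and -0.15 beside -0.02 and -0.01 for all genes. Of all genes 12.5% rose and 12.1% fell with ATRA, and 15.4% rose and 13.4% fell with AM80. CBFA2T3, a corepressor that joins TAL1 complexes, fell with either retinoid (log2 fold change -0.50 and -0.68, limma adjusted p = 0.000563 and 1.48e-05). TCF4, one of the E proteins that pair with TAL1, also fell (-0.34 and -0.45), while ERG, an ETS relative of FLI1, rose (0.30 and 0.45, limma adjusted p = 0.0195 and 0.000654). On adding the inhibitors 7 rose and 8 fell beside ATRA, and 8 rose and 5 fell beside AM80, with medians of 0.02 and -0.07. Of all genes 24.9% rose and 24.4% fell beside ATRA, and 19.9% rose and 19.5% fell beside AM80. The acetyltransferase genes CREBBP (0.63 and 0.86) and EP300 (0.55 and 0.65), whose products serve as coactivators of MYB, rose. ZFPM1, the GATA cofactor FOG1, fell (-1.12 and -0.48), as did SSBP4 (-0.69 and -0.49), from the family that stabilises the LDB1 bridge. CBFB, the partner of the RUNX factors, had untreated counts of 3368 ± 178 (SD, n = 4) and rose on adding the inhibitors (0.40 and 0.28), where its partners RUNX1, RUNX2 and RUNX3 fell, and KDM1A, which encodes LSD1, fell slightly in each of these 4 comparisons (-0.18 to -0.24).

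Relatives in the same protein families moved in both directions. Of 27 relatives 21 were tested, of which 7 rose and 4 fell with ATRA and 6 rose and 4 fell with AM80, where 12.5% and 15.4% of all genes rose and 12.1% and 13.4% fell. The median of the relatives was 0.07 with ATRA and 0.13 with AM80, with -0.02 and -0.01 for all genes. SPIB, the closest relative of SPI1, had 3 to 8 reads per untreated library and rose to normalized counts of 234 ± 4.06 with ATRA and 219 ± 21.7 with AM80 (n = 3), a log2 fold change of 5.35 and 5.24 (limma adjusted p = 1.70e-15 and 2.44e-15). IRF1, an interferon-induced relative of IRF8, rose (2.20 and 2.15), and IRF5 fell (-0.81 and -0.82), as did the ETS gene ELF1 (-0.64 and -0.60). On adding the inhibitors SPIB fell again (-1.48 and -1.41) and ELF1 rose (0.65 and 0.52), with GABPA (0.65 and 0.44), and IRF5 fell further (-0.46 and -0.54). IRF8 and IRF1 moved in opposite directions with the retinoids, and SPIB rose where SPI1 did not pass. On adding the inhibitors 5 relatives rose and 7 fell beside ATRA, and 6 rose and 8 fell beside AM80, with medians of -0.06 and -0.16 and the shares of all genes given for the factors (24.9% rising and 24.4% falling beside ATRA, 19.9% and 19.5% beside AM80).

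Genes known as targets of the factors were taken as lists, which share genes and in part hold the factors themselves. Their counts stand beside the same shares of all genes, 12.5% rising and 12.1% falling with ATRA and 15.4% and 13.4% with AM80. On adding the inhibitors these shares were 24.9% rising and 24.4% falling beside ATRA and 19.9% and 19.5% beside AM80. Of 21 PU.1 targets tested, 5 rose and 5 fell with ATRA and 6 rose and 4 fell with AM80, with medians of 0.00 in both. FGR, a Src family kinase, rose from 86.2 ± 10.95 normalized counts to 2840.1 ± 117 with ATRA (log2 fold change 5.03) and with AM80 (5.003), and NCF1, an NADPH oxidase subunit with near-identical pseudogenes that could share its reads, gave 1.61 and 1.62. Lysozyme, LYZ, fell (-0.67 and -0.48). Adding the inhibitors, where SPI1 fell, raised 4 and lowered 9 PU.1 targets beside ATRA and raised 5 and lowered 6 beside AM80, among them LYZ (0.70 and 0.52) and CYBB (0.51 and 0.39) upward and FGR (-0.95 and -0.80) downward. The median of these targets was then -0.23 beside ATRA and -0.02 beside AM80, with -0.02 and -0.01 for all genes.

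Of 18 MYB targets tested, 2 of which are themselves among the 10 factors, 3 rose and 7 fell with ATRA and 3 rose and 8 fell with AM80 (medians -0.19 and -0.25). TAL1, 1 of those factors, was among the falls here and on adding the inhibitors. MYC, the growth regulator, fell (-0.86 and -0.90) and fell further on adding the inhibitors (-0.72 and -0.94) in both retinoid settings. CCND1, cyclin D1, also fell on adding them (-0.86 and -1.02), while the chemokine receptor gene CXCR4 (0.51 and 0.48) and SOX4 (0.29 and 0.30) rose with the retinoids. CDK6 (0.63 and 0.56) and the repressor gene GFI1 (0.60 and 0.57) rose with the inhibitors, where 2 targets rose and 6 fell beside ATRA and 2 rose and 7 fell beside AM80. Falling and rising targets thus stood beside a MYB transcript that fell in each of these comparisons.

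Only 8 of 18 GATA2 and TAL1 targets were tested, 2 of them among the 10 factors, since the others, GATA1 and KIT among them, were under the expression limit. With ATRA 1 rose and 3 fell, and with AM80 1 rose and 2 fell (medians -0.04 and 0.10). NFE2, a globin and megakaryocyte regulator, rose (1.62 and 1.67), and the homeobox gene HHEX fell with the retinoids (-0.83 and -0.65) and rose on adding the inhibitors (1.07 and 0.88). Adding the inhibitors raised 2 and lowered 3 of these genes beside ATRA and raised 1 and lowered 1 beside AM80. TAL1, itself among the 10 factors, was among those that fell in each of these comparisons. It was the only one that fell on adding the inhibitors to AM80. Of 14 RUNX1 targets tested, 4 of them among the 10 factors, 1 rose and 4 fell with ATRA, and 2 rose and 4 fell with AM80 (medians -0.12 and -0.10). GATA2 and MYB, which belong to the 10 factors, were among those that fell with either retinoid. CDKN1A, the cell cycle inhibitor p21, rose (0.58 and 0.69), and KLF4, a monocyte factor, fell with the retinoids (-1.32 and -1.26) and rose on adding the inhibitors (0.69 and 0.66). With the inhibitors 1 rose and 10 fell beside ATRA and 1 rose and 7 fell beside AM80, where 24.9% and 19.9% of all genes rose and 24.4% and 19.5% fell. Of those that fell, 4 and 3 were among the 10 factors. The medians were -0.40 and -0.27, with -0.02 and -0.01 for all genes, and one of the falling targets was CSF1R, the receptor for macrophage colony-stimulating factor, at -0.82 and -0.92.

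**Figure D4:**
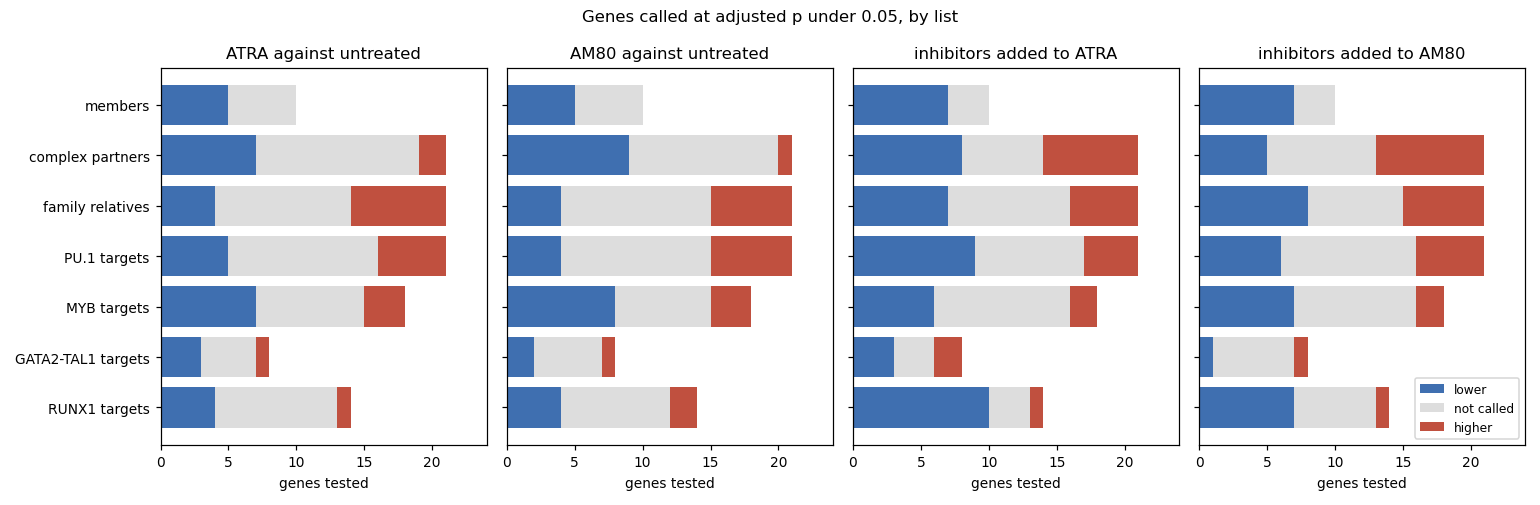
Number of genes tested in each list (horizontal axis) that were called lower (blue), higher (red) or not called (grey) at limma adjusted p under 0.05, in 4 comparisons. The 10 factors (members) hold no gene called higher, whereas each of the other lists holds genes called in both directions in each comparison. The target lists in part hold factors themselves, and TAL1 is the only GATA2 and TAL1 target called lower on adding inhibitors to AM80.

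For the 3 factors with the widest range of group means, the genes most like them over the 5 groups were sought among 11031 genes that averaged 50 or more normalized counts. Likeness was the root mean square difference of the centred log2 group means, where a smaller value is more alike. For TAL1 these were MIR17HG (0.0543), DAB2 (0.0709) and MYB (0.0729), and for MYB they were ALDH1B1 (0.0629), EEF2K (0.0708) and TAL1 (0.0729). MYB and TAL1 were thus each among the 3 closest genes of the other. Against untreated cells the standard errors of the log2 fold changes were 0.157 for TAL1, 0.132 for GATA2 and 0.068 for MYB. Which genes rank closest is therefore uncertain. MIR17HG, the host gene of the miR-17 cluster, went from a mean of 127 normalized counts in untreated cells to 40.4 with AM80 and inhibitors, and ALDH1B1 from 1090.0 to 416. For GATA2 they were NAA80 (0.0591), SEPTIN3 (0.0621) and TSPAN5 (0.0697). TSPAN5 dropped from 462 to 224 with ATRA and to 223 with AM80, and stood at 188 and 175 in the combinations.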

How the data were processed

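RNA-seq was measured in 16 libraries of OCI-AML3. The authors counted reads per gene on Galaxy and deposited 1 table of DESeq2-normalized counts, a signal in which reads were scaled by 1 size factor per library. The submitters' processing notes name FastQC, cutadapt, STAR, featureCounts and DESeq2, without versions. The genome build, annotation and strand setting are not given in the sources used here, and the labels and the study's methods name different RNA and library kits. All 62700 identifiers, versions included, matched GENCODE 29 (GRCh38), which was used for symbols and exon lengths. Whole reads were recovered for 100% of values (tolerance 0.001), and 0 columns of per-sample values were left unused. No authors' fold changes or p-values were used.

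The log2 of the normalized count plus a pseudocount of 1 was fitted, for 14643 genes that averaged 10 or more, with limma 3.58.1 in R 4.3.3 on all 16 libraries, with 1 coefficient per group and a mean-variance trend. P-values were two-sided and adjusted by Benjamini-Hochberg over all tested genes in each of 9 comparisons. A gene was called at an adjusted p under 0.05 with no fold limit. Fold changes are on the log2(value + 1) scale, which understates those of low genes. Alternatives were edgeR 4.0.16 quasi-likelihood with TMM and DESeq2 1.42.0 on the recovered reads (3737 and 3560 genes called for ATRA against untreated cells, beside 3609 by limma), a pseudocount of 0.5 or 5, no filter or a mean of at least 50, quantile normalization, scaling to total reads, only the groups compared, a replicate block, each library left out, a fold of at least 1.5 and an adjusted p under 0.01. Changes of 2 times simulated in 200 of 14643 genes were recovered for 89.5% by limma in AM80 with inhibitors against untreated cells (14 other genes called). The simulated counts had the same dispersion for every gene and no deviating library. Smaller changes were not simulated, so this rate does not carry over to them.

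The 10 factors, the partner, relative and target lists and the tests were chosen with earlier results of these data known. The genes named from each list were up to 2 with the largest mean rise and 2 with the largest mean fall among those called with both retinoids, taken separately for each retinoid against untreated cells and for each combination against its retinoid. For the 3 factors of widest range, the 3 genes of most similar group means were named. A gene that this rule would name is not reported here. CBFB, KDM1A, GATA1, KIT and CD34 were named for their roles after their values were seen. Promoter sequences came from RefSeq (GRCh38.p14). Python 3.11.15, pandas 2.3.3 and matplotlib 3.10.9 were used for summaries and plots.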

Additional observations from a re-analysis of the deposited data

How the results depend on the processing

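Of 41 results in which a factor was called, 33 stayed called with each library left out in turn, 21 under every alternative run, and 0 changed direction. A fold of at least 1.5 left 3, 3, 5, 5, 3 and 3 factors called with ATRA, AM80, the ATRA and AM80 combinations against untreated cells, and the inhibitors beside ATRA and AM80, where 9.45%, 10.2%, 29.1%, 26%, 19.5% and 15.7% of all genes were called, and an adjusted p under 0.01 left 4 for the inhibitors beside ATRA (35.7% of all genes). With single libraries left out the counts ran 4 to 6, 5 to 6, 6 to 9, 7 to 9, 4 to 7 and 7 to 8 in the same order, beside 18.5% to 27.6%, 23.2% to 32.8%, 53.7% to 61.8%, 48.5% to 56.9%, 40.4% to 54.1% and 31.6% to 45.2% of all genes. Each count of 6 at the top of a range includes a factor called higher. It was RUNX1 with ATRA without untreated replicate 2 or 3 (0.31 and 0.32), and LMO2 with AM80 without untreated replicate 4 (0.23). LMO2 was also the factor called higher in the count of 6 with the replicate block below. The lowest counts of 4 came without ATRA replicate 3 (ATRA) and without replicate 2 of ATRA with inhibitors (inhibitors beside ATRA). The count ran from 0 to 2 for the 2 combinations compared directly (0% to 4.41% of all genes). That direct comparison held 4 factors with only the groups compared, 1 by DESeq2 and 2 with the replicate block (13.5%, 1.19% and 4.71% of all genes). Same-numbered replicates had a median correlation of -0.00504 over 30 pairs (-0.112 to 0.187), so the numbers were not taken as pairing, and with the block the counts were 5, 6, 9, 9, 7 and 7 in the same order, beside 23.9%, 32.4%, 58.8%, 54.8%, 53.9% and 44.8% of all genes, and 0 for AM80 against ATRA (2.75%) and for the interaction (0%). Of the 90 results in all 41 were called, and of the remaining uncalled results 16 changed sign under some alternative. Since only untreated cells had a replicate 4, the block in effect left that library out, and its values given next equalled those without it. With the block SPI1, RUNX2 and LMO2 with ATRA were 0.036, -0.073 and 0.076, SPI1 with AM80 was 0.056 (0.0070 by edgeR, 0.0010 by DESeq2), and LMO2 with AM80 (0.23) and RUNX1 with ATRA and inhibitors against untreated cells (-0.18) passed. With quantile normalization and scaling to total reads, FLI1 with AM80 was -0.013 and -0.024, LMO2 in AM80 with inhibitors against untreated cells -0.151 and -0.154, SPI1 in AM80 against ATRA -0.013 and -0.040, RUNX3 between combinations -0.00647 and -0.00780, and the LMO2 interaction 0.0034 by total reads. With libraries left out, uncalled values with ATRA ran from -0.066 to 0.036 (SPI1), -0.073 to 0.13 (RUNX2), -0.046 to 0.076 (LMO2) and -0.095 to 0.0068 (FLI1). With AM80 they ran from -0.084 to 0.11 (SPI1) and -0.20 to 0.0051 (RUNX2). Against untreated cells RUNX1 with ATRA and inhibitors ran from -0.18 to 0.017 and LMO2 with AM80 and inhibitors from -0.012 to 0.11. For AM80 against ATRA, SPI1 ran from -0.062 to 0.13 and MYB from -0.053 to 0.0062, and between combinations RUNX3 from -0.017 to 0.10 and FLI1 from -0.10 to 0.0090. The interaction ran from -0.061 to 0.20 for GATA2, -0.013 to 0.067 for IRF8 and -0.058 to 0.033 for LMO2. The causes were not tested. Depth limits TAL1 most, with 21 to 97 reads per library.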
